A study of Daphnia magna with 22 samples.

Results

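A small set of gene models was read far more in females of one Daphnia magna clone than in females of another, where most of the set was close to 0. The set holds 39 of the 14657 rows of the count table, on 38 IDs. Its members were chosen by the measured difference between the clones. A row qualified if its ID began with KZ and was on at most 4 rows, if its mean was at least 5 and under 2000 CPM (the count of a row scaled by the total count of its library) over all 22 libraries, and if its mean log2(CPM + 1) was higher in GB than in IL by 3 or more. Of the 2862 rows that met the other limits, 39 (1.36%) also met the last. The clone difference is therefore given as a description, with no test. Differences between treatments within GB were not used for the choice, and they were tested.

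The animals were adult females of the water flea D. magna, a small crustacean that breeds without males for many generations. All females of a clone are then genetically alike apart from new mutations. The GB isolate, GB-EL75-69, was taken from a lake in London that holds water all year, and the IL isolate, IL-M1-8, from a Jerusalem pond that falls dry each summer, so each clone stands for 1 isolate. Full-diet controls of both clones received 400000 algal cells per mL and day, and the caloric restriction (CR) groups received 100000. The other groups had the full diet and a bath of 2 h each day in 2.5 mM beta-hydroxybutyrate (BHB, a ketone body) or in 0.1 mM nicotinamide mononucleotide (NMN, a precursor of NAD+). Controls and CR animals spent the same time in plain medium. RNA came from whole bodies of single females without their newly laid eggs, at an age of 75 ± 2 days. Each clone had 3 females in control, CR and BHB and 2 in NMN, and the titles number the NMN females 1 and 3 in GB and 2 and 3 in IL. Libraries held 8503141 to 14353733 counted reads. One of them, IL CR replicate 1, held more reads of the members than the other IL libraries, and the IL summaries and the lowest IL levels are given with and without it.

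Lines of one species commonly differ in which genes are read. A gene can be missing or interrupted in one genome, a regulatory sequence can be inactive, or the copy of one line can differ so far from the reference that its reads fail to align. A count table alone cannot tell these apart. The table names gene models by protein accession, the RefSeq gene table matched 0 of the members' IDs, and no member can be given a gene name, a position or a function here. Where an ID is on several rows, an added number gives the place of the row among them, so that KZS20388_3 is the third row of KZS20388. CPM is not corrected for transcript length, which is not known here, and levels are compared between animals and not between members.

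The mean levels of the members in GB were well above the floor of detection, which follows in large part from the limit on mean CPM. Single GB females could be low, down to 0.470 CPM in KZS19989 and 1.34 CPM in KZS21218. Mean levels in GB ran from 9.87 to 338.8 CPM with a median of 20.9, and 21 members lay under 25 CPM, 12 between 25 and 100 and 6 at 100 or above. The same gene models averaged 0.0312 to 27.8 CPM in IL, where 25 of them had a mean under 1 CPM. The IL mean was 0.290% to 9.48% of the GB mean (median 1.94%), a GB mean 10.6 to 345 times higher (median 51.5). Without IL CR replicate 1 the IL means ran from 0.00820 to 27.1 CPM, with 27 under 1 CPM, and the IL mean was 0.0587% to 9.23% of the GB mean (median 1.63%). The GB mean was then 10.8 to 1704 times higher (median 61.4). The largest of these folds, that of KZS21218, rests on 1 IL read, and its exact Poisson 95% interval of 306 to 6.73e+04 covers counting error only. On the log2(CPM + 1) scale the difference was 5 or more in 7 members, from 4 to under 5 in 7 and under 4 in 25. In all 39 every GB library lay above every IL library, which held for 5.84% of the 2862 rows within the limits and follows in large part from the choice. Differences within single treatments are parts of the clone difference that the rule required, so their size also follows in large part from the choice. Under control conditions 38 members had a difference of 3 or more, and 38 did so with CR. With BHB this number was 37, and with NMN it was 37 as well. The smallest value of any member was 1.82 (CR), 1.85 (BHB), 2.59 (NMN) or 2.81 (control).

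**Figure D1:**
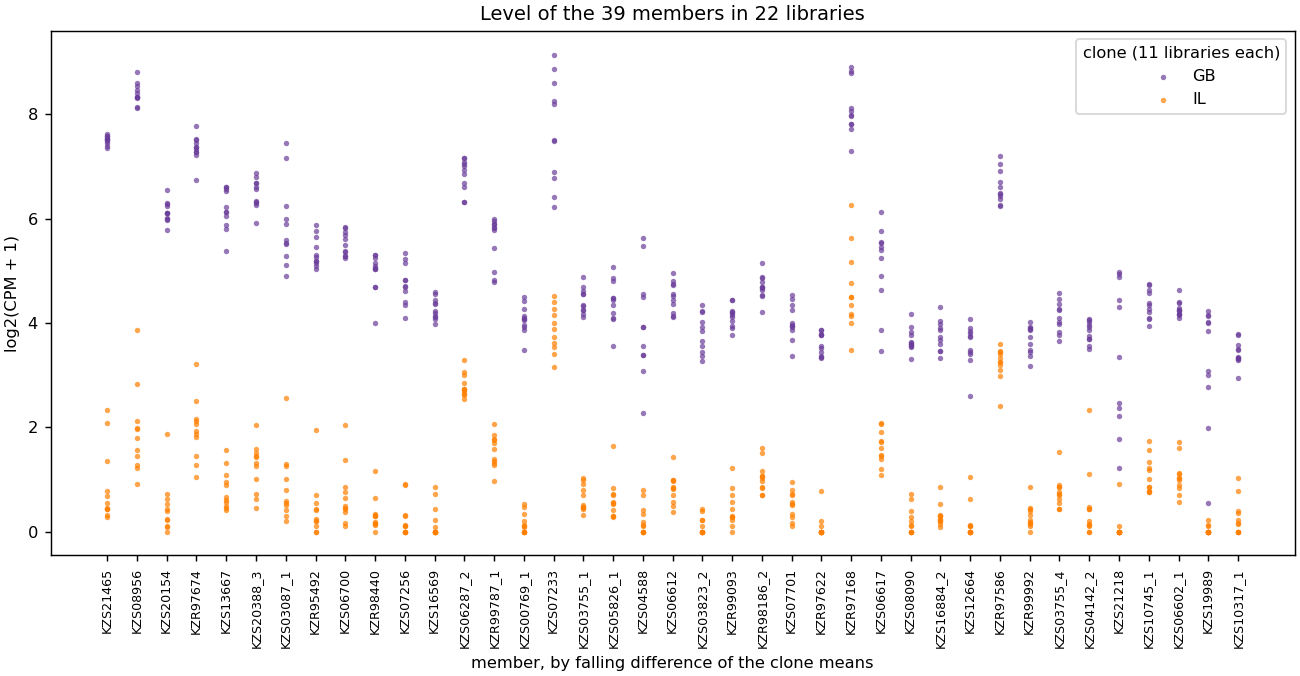
Level of each of the 39 members in the 22 libraries, as log2(CPM + 1), with members in order of falling clone difference; each point is 1 female, in purple for GB and orange for IL. The 11 GB points lie above the 11 IL points in every member, and the difference of the clone means is largest in KZS21465 (6.62) and smallest in KZS10317_1 (3.14). Single points can lie closer, as in KZS21218, at 1.34 CPM in the lowest GB library and 0.892 in the highest IL library.

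KZS21465 had the largest difference, 6.62 on the log2(CPM + 1) scale. It measured 161.5 CPM in the lowest GB library, 182.3 in the median and 195.7 in the highest. The IL libraries held between 0.217 and 4.01 CPM with a median of 0.472, so that the GB mean of 180.7 ± 10.3 CPM (SD, n = 11) stood against 1.10 ± 1.31 (n = 11). All GB females fell in a narrow band, and the highest IL female was IL CR replicate 1.

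KZS08956 took the largest share of reads in GB, with 276.2 CPM in the lowest library, 321.6 in the median and 445 in the highest. In IL it ran from 0.881 to 13.6 CPM with a median of 2.46. Its difference was 6.49, and the clones were separated by a wide gap. KZS20154 ranged from 54.2 to 92.3 CPM in GB around a median of 67.9, and from 0 to 2.68 in IL around 0.315. KZR97674 ranged from 106.4 to 219.2 CPM in GB around a median of 164.6 and from 1.05 to 8.29 in IL around 2.79. In each of these 4 members IL CR replicate 1 was the highest IL library. Without it the IL means were 0.815 CPM for KZS21465, 2.50 for KZS08956, 0.278 for KZS20154 and 2.68 for KZR97674.

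No member was without reads in all IL libraries (0 of 39). KZS19989 had 4 IL reads, at 0 in 8 of 11 IL libraries and at 0.174 CPM in the highest. KZS21218 and KZR97622 had 11 IL reads each, of which 10 and 8 were in IL CR replicate 1. Without that library KZS21218 had 1 read, KZR97622 had 3 and KZS19989 still had 4, so which member had the fewest depends on it. The IL mean was under 1% of the GB mean in 10 members, from 1% to under 2% in 11, from 2% to under 5% in 11 and 5% or more in 7, and without IL CR replicate 1 these numbers were 14, 8, 10 and 7. The members with the most IL reads were KZR97168 with 3448, KZS07233 with 1873, KZR97586 with 1091 and KZS06287_2 with 793. None of these 4 was at 0 in any IL library, and KZR97168 varied most widely among IL females in absolute level, from 10.2 to 75.3 CPM.

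The reads left in IL were spread unevenly over its libraries. The median member measured 4.97% of its GB mean in IL CR replicate 1, against 0.848% to 2.31% in the other 10 IL libraries. IL CR replicate 1 was the highest IL library in 19 of 39 members, and only 2 members had 0 reads there. Among the 21 members with an IL mean under 2% of the GB mean it was the highest in 15, with a median of 3.84% against 0 to 1.38% elsewhere. The 18 gene models that meet the mirror of the rule, nearly limited to IL, measured a median of 0.190% to 1.09% of their IL mean in the GB libraries. In IL CR replicate 1 they stood at 99.8% of their IL mean. What set this library apart was not tested. The GB treatment tests use no IL library, and without it the rule gave 40 members, with all 39 among them.

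**Figure D2:**
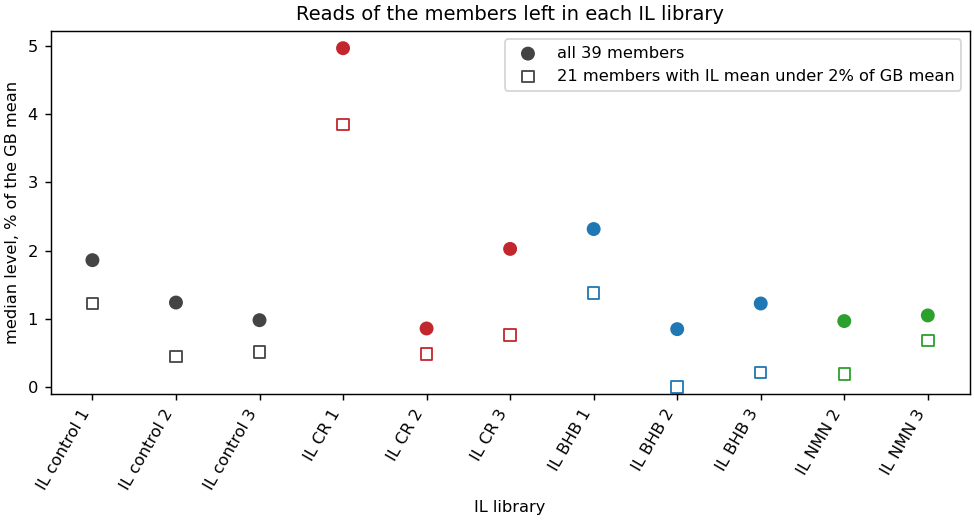
Reads of the GB-limited gene models in each IL library, as the median over members of the level in percent of the GB mean; filled circles cover all 39 members and open squares the 21 with an IL mean under 2% of the GB mean, coloured by treatment. IL CR 1 lies highest on both measures, at 4.97% and 3.84%.

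Single IL females held more of 2 members. KZS04142_2 measured 4.01 CPM in IL control replicate 2, 30.1% of its GB mean of 13.3 CPM, while the median IL library had 0.157 CPM. KZR97168 measured 75.3 CPM in IL NMN replicate 2, 25.7% of its GB mean, and 48.2 in IL control replicate 1, while the lowest IL library had 10.2. The GB range of KZR97168 was 156.6 to 476 CPM, so that the lowest GB female was still well above the highest IL female. KZS07233 ranged from 74.0 to 560 CPM in GB around a median of 181 and averaged 14.3 ± 4.5 CPM in IL (SD, n = 11), a difference of 3.79.

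At the edge of the rule, rows just outside lay close to those just inside, with none between 2.99 and 3.14. Just inside were KZS10317_1 (difference 3.14), KZS19989 (3.21) and KZS06602_1 (3.22), with GB means of 9.87, 10.8 and 18.4 CPM. Just outside were KZS16653 (2.99), KZS04057 (2.94) and KZS10135 (2.94), with GB means of 18.9, 20.3 and 57.7 CPM against 1.52, 1.80 and 3.26 in IL. KZS19989 was near the edge although its IL mean was only 0.0312 CPM, and its GB levels ran from 0.47 to 17.7 CPM.

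Repeated IDs were common in the set. Of the 39 members 15 (38.5%) were on an ID with 2 to 4 rows, against 339 of the 2862 rows within the limits (11.8%) and 2 of the 18 gene models nearly limited to IL. Accessions that begin with KZR made up 10 of the 39 (25.6%) against 3.91% of the rows within the limits. These counts were not tested. The 15 members lay on 14 IDs, which had 20 further rows, 6 of them with 0 reads and 16 with a mean under 1 CPM in both clones. When all rows of an ID were added up, the difference stayed at 3 or more in 12 of the 14 IDs.

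The other 2 IDs lost it. In GB KZS05826_1 averaged 20.9 ± 6.25 CPM, beside 0.602 ± 0.544 in IL (SD, n = 11 each), but another row of the same ID held 185 CPM in GB and 226 in IL. Summed over its rows KZS05826 measured 206 CPM in GB and 227 in IL, a log2(CPM + 1) difference of -0.13. For KZS06602 the sums were 26.4 and 7.64 CPM, a difference of 1.70, because KZS06602_3 and KZS06602_4 were read in both clones. Reads of near-identical copies could be divided among such rows, and for these IDs the clone limit belongs to the row and not to the ID. KZS03755 had 2 member rows, KZS03755_1 at 20.9 and KZS03755_4 at 16.7 CPM in GB. These rows followed each other over the 11 GB females (Pearson r 0.92, and 0.80 after group means were removed, with no test).

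**Figure D3:**
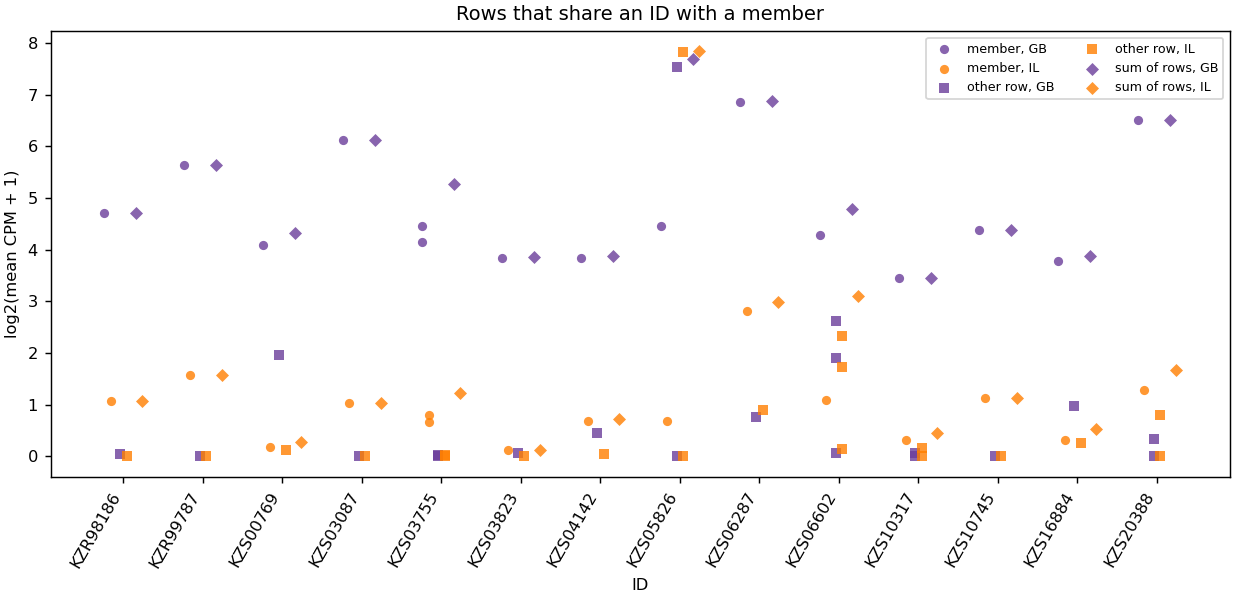
Mean level, as log2(mean CPM + 1), of member rows (circles), other rows of the same ID (squares) and the sum over all rows of the ID (diamonds) for the 14 IDs with more than 1 row, in purple for GB and orange for IL. The clone gap persists in the sum for 12 IDs and is lost or reduced for KZS05826 and KZS06602.

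Most members varied little among like-treated GB females, but somewhat more than other rows of the same range of GB level. The within-group coefficient of variation (SD among like-treated females over the mean, on CPM) had a median of 19.03%, against 14.4% in 2092 other rows of the same range of GB level. It was under 25% in 29 members (74.4%, against 81.3% of those rows), from 25% to 50% in 6 and over 50% in 4. The steadiest were KZS21465 (4.12%) and KZR95492 (6.89%). Together the members took 0.184% to 0.249% of all counted reads in GB and 0.00606% to 0.0138% in IL.

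The least steady were KZS04588, with a within-group coefficient of variation of 92.3%, and KZS21218, with 81.4%. The 3 GB control females measured 9.51, 3.82 and 43.6 CPM of KZS04588, the CR females 14.1, 14.2 and 21.7, the BHB females 48.3, 10.8 and 7.41 and the NMN females 9.49 and 22.4. One female in control and one in BHB were far above the rest of their groups, and the groups overlapped. For KZS21218 the control females measured 4.50, 20.6 and 18.9 CPM, the CR females 2.44, 4.17 and 3.64, the BHB females 30.5, 28.6 and 1.34 and the NMN females 29.8 and 9.16. The CR females were alike and low, and the other groups each held high and low animals.

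GB control replicate 2 had the lowest share of reads in the members (0.184%, against 0.223% or more in every other GB library) and the lowest CPM of 12 members. After TMM scaling, which removes shifts shared by most gene models, it was the lowest GB library in 8 members, as was GB BHB replicate 2.

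Members did not vary as one block. Over the 741 pairs of members the median Pearson r of log2(CPM + 1) across the 11 GB libraries was 0.11, and 13 pairs exceeded 0.8. The closest pair on different IDs was KZS07256 and KZS13667, with an r of 0.91, and 0.95 after group means were removed. Both were lowest in GB BHB replicate 3, at 16.1 and 40.8 CPM, and highest in GB BHB replicate 2, at 39.5 and 96.8. Outside the set, the KZ rows closest to the mean log2 level of the members over the 11 GB libraries, chosen as the highest of 2981 values of r, were KZS16333 (0.91), KZS06683 (0.91) and KZS12459 (0.90). These were read in both clones, at 64.0, 77.4 and 80.6 CPM in GB and 60.9, 105 and 65 in IL. Animals of one clone share depth and composition shifts, and these correlations carry no p.

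The treatments were then compared within GB, in a fit of its 11 libraries across 4610 gene models in which all 39 members were tested. Levels from here on are TMM-scaled CPM. The scaling matters for CR, because counts divided by the plain library total shift the median gene model of CR against control upward by 0.27 on the log2 scale relative to TMM, that of NMN by 0.15 and that of BHB by 0.04. Of the 39 members 31 had a highest group mean under 1.5 times their lowest, 3 reached 1.5 to 2 times and 5 more than 2 times. Neither this count nor the later counts of intervals within 2-fold were taken over all gene models. The median absolute log2 fold change against control was 0.247 in members and 0.216 in all gene models for CR. For BHB these values were 0.142 and 0.182, and for NMN 0.168 and 0.169.

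CR against control called 0 of 39 members at an adjusted p under 0.05 in edgeR's quasi-likelihood test, where 29 of all 4610 gene models (0.629%) were called. At an unadjusted p under 0.05 there were 7 members, 2 higher and 5 lower in CR (17.9% of members, against 13.3% of all gene models). DESeq2 called 1 member and 156 gene models. It was run without the low-count filter of the edgeR fit, so its counts here and below are not out of the 4610 and carry no share. The median log2 fold change was 0.01 over the members and -0.01 over all gene models, 21 members measured higher and 18 lower, and the 95% interval lay within a 2-fold change either way for 30. With plain library totals 27 measured higher, and both medians moved up to 0.28 and 0.26.

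KZR97168 had the smallest p among members lower in CR. Control females measured 258, 311 and 488 scaled CPM and CR females 139, 199 and 203, so that all 3 CR animals lay below all 3 controls. The log2 fold change was -0.96 ± 0.252 (SE; edgeR adjusted p = 0.164; -0.66 to -1.15 with each library left out, the smaller without GB control replicate 3). DESeq2 gave it an adjusted p of 0.0232, where the alternatives together ranged from 0.0232 to 0.823. KZR95492 had the smallest p among members higher in CR. It measured 36.3, 35.9 and 35.8 scaled CPM in control and 51.3, 47.2 and 44.9 in CR, again without overlap, with a log2 fold change of 0.41 ± 0.112 (edgeR adjusted p = 0.175). It was called with plain library totals (edgeR adjusted p 0.0339, log2 fold change 0.68), and its alternatives ranged from 0.0339 to 0.9747. All CR libraries carry library numbers from 17 to 22 and no others do, so CR and library number cannot be told apart. A fit that held library number as a covariate called 0 members and 1 of all gene models, and it cannot separate them either.

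BHB against control called 0 of 39 members, and 0 of 4610 gene models overall (0.0%). At the lower bar 1 member had an unadjusted p under 0.05, against 355 of all gene models (7.70%), and DESeq2 called 0 members and 17 gene models. The members' median log2 fold change was 0.04, beside -0.02 over all gene models. KZS19989 measured 7.63, 20.0 and 14.5 scaled CPM in control and 7.24, 0.453 and 3.45 in BHB. All 3 BHB females lay below all 3 controls, though the highest BHB and the lowest control were close. Its log2 fold change was -1.89 ± 0.732 (SE, edgeR adjusted p = 0.624), and it ran from -1.35 without GB BHB replicate 2 to -2.83 without GB BHB replicate 1. KZS07701 had the smallest p among members higher in BHB, at 14.8, 21.3 and 21.2 against 13.9, 10.5 and 15.3 scaled CPM in control, with overlapping groups (0.53 ± 0.257, edgeR adjusted p = 0.624).

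NMN against control also called 0 of 39 members and 0 of 4610 gene models (0.0%), with 0 members and 136 gene models at an unadjusted p under 0.05 and, in DESeq2, 0 members and 2 gene models. There were 16 members higher and 23 lower, with a median of -0.05 beside -0.02 overall; with plain library totals 26 were higher. KZR97168 measured 426 and 470 scaled CPM in the NMN females, inside the control range of 258 to 488 (log2 fold change 0.35 ± 0.277, edgeR adjusted p = 0.999). This value was 0.16 without GB control replicate 1 and 0.65 without GB control replicate 3. KZS16884_2 measured 9.67 and 10.9 in NMN against 15.3, 13.2 and 16.7 in control, below all controls (-0.55 ± 0.262, edgeR adjusted p = 0.999). With 2 NMN females these differences have the widest intervals, which lay within 2-fold for 31 of 39 members.

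**Figure D4:**
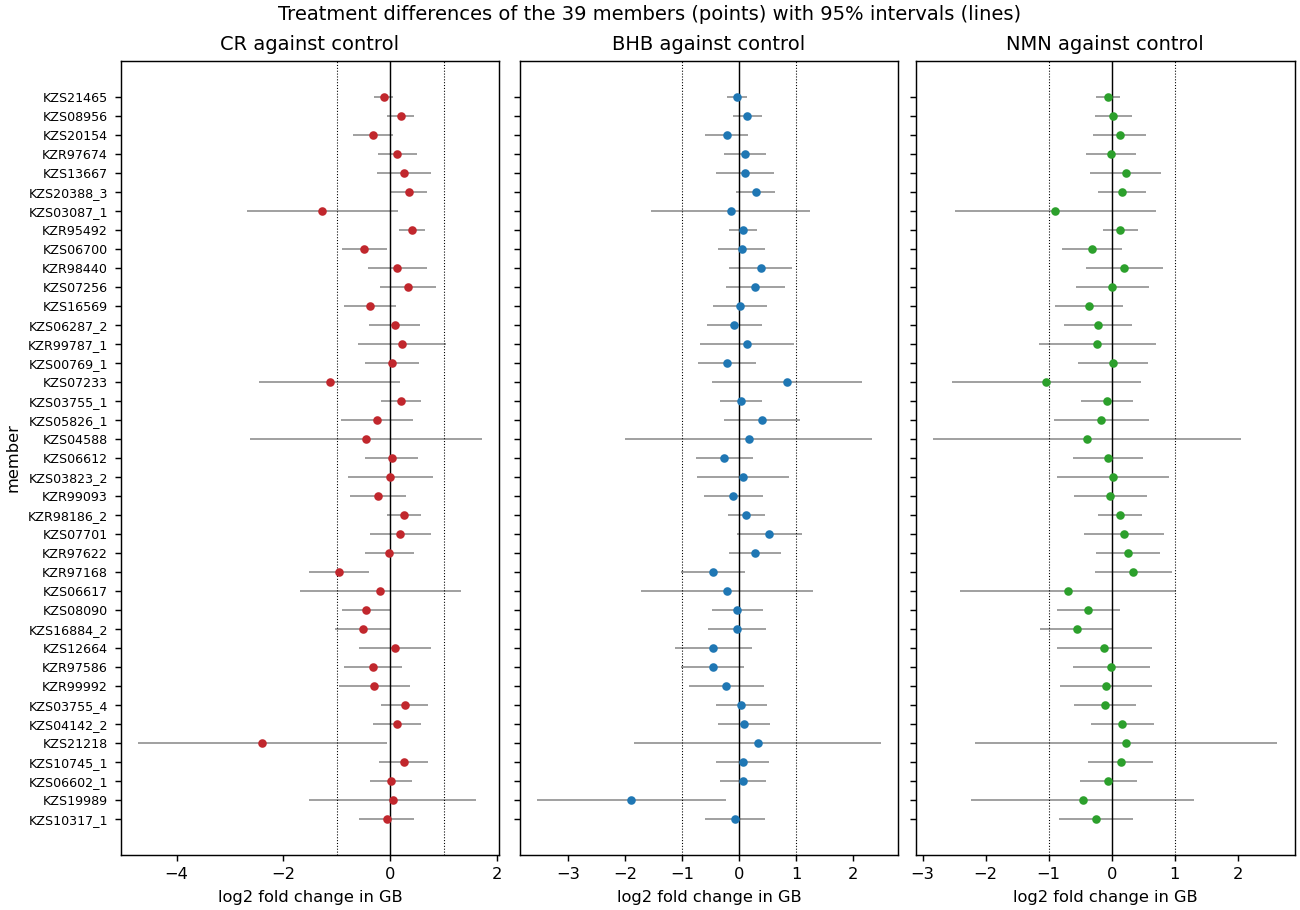
Log2 fold change of each of the 39 members against control in GB for CR, BHB and NMN (points) with 95% intervals (lines), members in order of falling clone difference; dotted lines mark 2-fold changes. Most points lie near 0, and the widest intervals in CR belong to KZS21218, KZS04588, KZS19989, KZS07233, KZS03087_1 and KZS06617.

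BHB against CR called 0 of 39 members in edgeR, where 14 of 4610 gene models were called (0.304%). At an unadjusted p under 0.05 there were 5 members (12.8%) and 638 gene models (13.8%), and DESeq2 called 1 member and 180 gene models. KZS07233 measured 480, 293 and 657 scaled CPM in BHB and 105, 160 and 98.8 in CR, with no overlap. Its log2 difference was 1.98 ± 0.589 (SE, edgeR adjusted p = 0.184), with adjusted p-values of 0.00517 in DESeq2 and 0.0240 in the BHB and CR libraries alone, and from 0.00517 to 0.999 over its alternatives. Control females measured 400, 83.5 and 315 and overlapped both groups. KZR95492 was lower in BHB than in CR (-0.34 ± 0.112, edgeR adjusted p = 0.203), and with plain library totals it was called (edgeR adjusted p 0.0388, log2 difference -0.57).

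NMN against CR called 0 of 39 in edgeR, where 5 of 4610 gene models were called (0.108%). At an unadjusted p under 0.05 there were 3 members (7.69%) and 536 gene models (11.6%), and DESeq2 called 1 member and 118 gene models. The smallest p belonged to KZR97168, at 426 and 470 scaled CPM in NMN against 139, 199 and 203 in CR, with both NMN females far above the highest CR female. The log2 difference was 1.31 ± 0.275 (SE, edgeR adjusted p = 0.127), and the adjusted p was 0.00347 in DESeq2 and 0.0355 in the NMN and CR libraries alone, within a range of 0.00347 to 0.411 over its alternatives. KZR95492 had the smallest p among the members lower in NMN (-0.27 ± 0.125, edgeR adjusted p = 0.429). The comparisons share the CR libraries, and the control comparisons share the controls.

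BHB against NMN called 0 of 39 members and 0 of 4610 gene models (0.0%), with 2 members and 587 gene models at an unadjusted p under 0.05, and 0 and 48 in DESeq2. KZS07233 was 1.88 ± 0.682 higher (log2, SE, edgeR adjusted p = 0.372) and KZR97168 0.80 lower (-0.80 ± 0.276, edgeR adjusted p = 0.372) in BHB. KZS07233 measured 81.0 and 178.6 scaled CPM in NMN, below every BHB female, and its difference was 1.42 without GB NMN replicate 1 and 2.56 without GB NMN replicate 3.

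**Figure D5:**
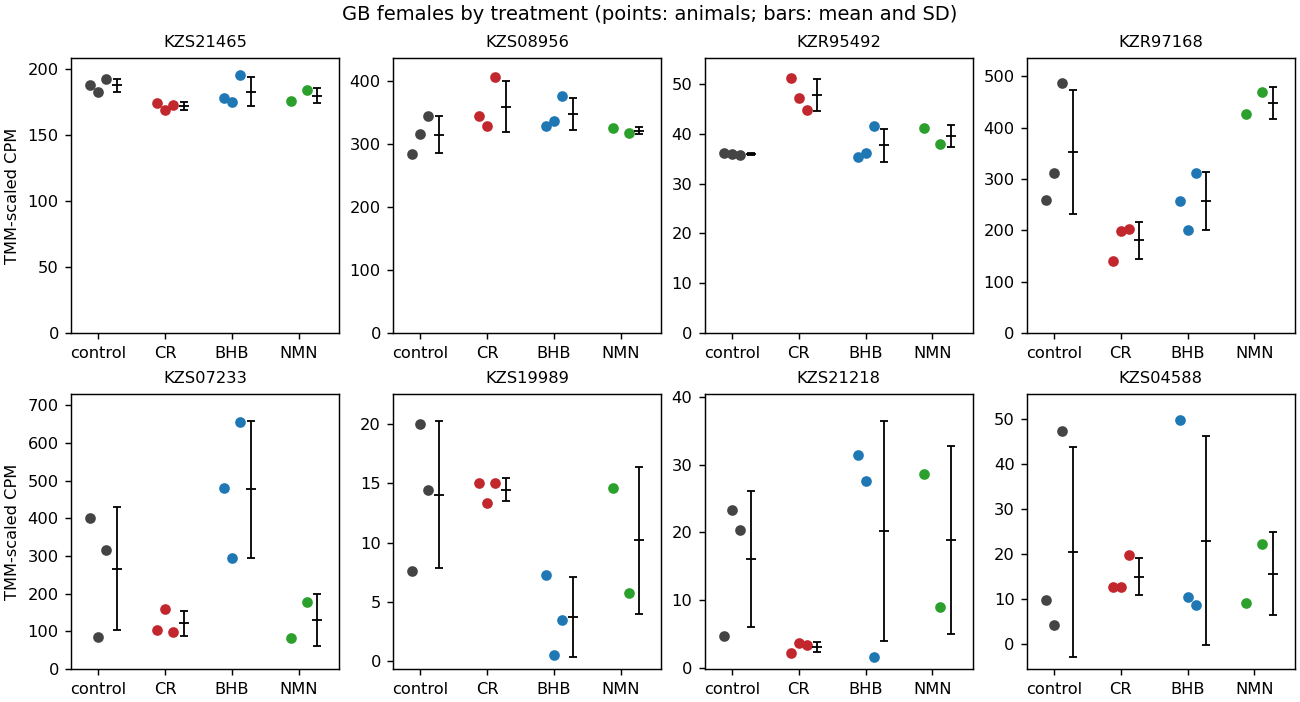
TMM-scaled CPM of 8 named members in the 11 GB females by treatment; points are females, and bars give the mean and SD of each group (n = 3, or 2 for NMN). KZS21465 is level over the groups, KZR97168 is lowest in CR and highest in NMN, KZS07233 is highest in BHB, and KZS21218 and KZS04588 scatter within groups.

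The pair of members with the largest clone difference varied little over the treatments on the TMM scale. For KZS21465 the scaled CPM averaged 187.6 ± 5.09 among control females (SD), 171.9 ± 2.87 among CR females, 182.9 ± 10.8 among BHB females (each n = 3) and 179.9 ± 5.50 among NMN females (n = 2). The 95% interval of its log2 fold change was -0.30 to 0.05 in CR, -0.21 to 0.14 in BHB and -0.26 to 0.13 in NMN. With plain library totals the CR mean of 191.8 CPM stood above the control mean of 173.9, so the direction for CR depends on the scaling. KZS08956 averaged 314.9 ± 29.6, 359.6 ± 40.9, 347.4 ± 25.7 and 321.3 ± 5.80 in the same order, with an interval of -0.07 to 0.45 in CR. With plain library totals KZS08956 averaged 291.3 CPM in control and 400.7 in CR, and every CR female lay above every control female. Other members with a large clone difference, chosen after their values were seen, varied more. KZS20154 averaged 75.7 ± 7.39, 60.6 ± 8.26, 65.1 ± 13.9 and 82.6 ± 11.9 scaled CPM in the same order, and its log2 difference of NMN against CR was 0.45 ± 0.187 (SE, edgeR adjusted p = 0.397). KZS03087_1, with a clone difference of 5.02, averaged 93.5 ± 45.5 in control and 38.8 ± 4.53 in CR. Its log2 fold change in CR was -1.27, with an interval of -2.69 to 0.14.

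In IL the members were too rarely read for a treatment comparison in most cases. The difference of the GB and IL responses, tested over all 22 libraries, was called by edgeR for 0 of 39 members and 0 of 4965 gene models (0.0%) in each of CR, BHB and NMN. With so few IL reads of most members, this count cannot show whether the clones responded alike. At an unadjusted p under 0.05 there were 9, 2 and 4 of the 39 members, beside 411, 377 and 154 of the 4965 gene models. The share was larger among the members in CR and NMN and smaller in BHB, and this was not tested. The smallest edgeR adjusted p-values of members were 0.312 in CR and 0.613 in BHB, and that in NMN was above both. The IL CR group holds the library with the most reads of the members. Without it edgeR again called 0 of 39 members, with 5, 7 and 4 at an unadjusted p under 0.05 beside 476, 425 and 169 gene models. The share was then larger among the members in BHB as well, so the order of the treatments depends on this library. Of all 4950 gene models edgeR then called 4 in CR (0.0808%) and 0 in BHB and NMN. KZR97168, the member most read in IL, measured 48.2, 19.3 and 26.3 CPM in IL control, 35.0, 21.4 and 16.6 in CR, 14.96, 10.2 and 17.02 in BHB and 75.3 and 21.4 in NMN. The BHB females lay below all control and NMN females, and the other pairs of groups overlapped.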

How the data were processed

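RNA-seq counts of 22 single-female libraries were used. Per the labels, a Qiagen RNeasy kit gave the RNA and a directional NEBNext Ultra II kit the libraries. The authors deposited raw sense-read counts for each gene model. Per the submitters' processing notes FastQC, Trim Galore 0.4.5, STAR and DESeq2 were used; how reads were counted, and on which build and annotation, is not given in the sources used here. Groups follow the letters of the titles, with L read as CR by elimination.

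CPM and log2(CPM + 1) were computed from plain library totals for the rule. Treatments were tested with edgeR 4.0.16 (R 4.3.3) on the 11 GB libraries with 4 group means: filterByExpr (minimum count 10, minimum total 15), TMM scaling, robust quasi-likelihood F test, Benjamini-Hochberg adjustment over all 4610 gene models tested, threshold 0.05. The fit gave a biological coefficient of variation of 31.3%. Each standard error comes from the fold change and its F statistic. The fit was tested on simulated data. All 20 pairs of libraries within a group differed beyond sampling noise, with a lowest chi-square of 30.2 for each degree of freedom. The females of a clone descend from 3 founders, and the labels do not say whether title numbers mark these lines, so p-values measure the spread between these animals. IL reads of a member are few, which limits the precision of its ratio.

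Named were the 4 members with the highest GB level, the 4 with the largest clone difference, the 3 on each side of the threshold, the 2 most and the 2 least variable, the 2 with the highest single IL library relative to the GB mean, the 3 most similar rows outside the set and, as no member passed, the smallest p in each direction of each treatment comparison. Members named for few or many IL reads, for repeated IDs, for a close pair or for the largest fall in CR were chosen after their values were seen. Alternatives were DESeq2 1.42.0, median-ratio size factors, other filters, all 22 libraries, the compared groups alone, an adjusted p of 0.1, a replicate block, library number, summed rows of an ID, each library left out and other forms of the rule; plain library totals, values without IL CR replicate 1 and the test of the GB and IL responses were added after seeing the data. The members and lists were chosen with earlier results of these data known.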

Additional observations from a re-analysis of the deposited data

How the results depend on the processing

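The rule gave 39 members. It gave 12 with a pseudocount of 5, 76 with a difference threshold of 2 and 14 with a threshold of 4, because a larger pseudocount or threshold asks for a larger gap. A pseudocount of 0.1, TMM-scaled totals, medians, and no limits on rows per ID or on mean CPM gave 39 to 50, with all 39 members among them. With each library left out the number was 38 to 42. The count of 0 members called was kept in all 6 treatment comparisons with the replicate block (0), each library left out (0 to 0), median-ratio size factors, other filters, all 22 libraries, summed rows, an adjusted p of 0.1 and library number. For comparisons with CR, the fit with library number cannot separate that number from the treatment. Of 15 pairs of same-numbered GB libraries 4 had an r over 0.1 (range -0.18 to 0.35), which does not show that the numbers pair the animals, and the labels leave it unstated. DESeq2 called 1 member in CR against control (KZR97168), 1 in BHB against CR (KZS07233) and 1 in NMN against CR (KZR97168). The compared groups alone called 1 in BHB against CR (KZS07233) and 1 in NMN against CR (KZR97168), and plain library totals called 1 in CR against control and 1 in BHB against CR (KZR95492 in both); the cause was not tested. Among the members named for the smallest p in a comparison no direction reversed; that of KZS21465 in CR did so with plain library totals. Over all gene models the calls of CR against control (29) ranged from 1 to 156 over settings and from 2 to 72 with a library left out (72 without GB control replicate 3), those of BHB against CR (14) from 0 to 180 and 0 to 18, and those of NMN against CR (5) from 1 to 118 and 0 to 8. BHB against control, NMN against control and BHB against NMN (0 each) reached 17, 2 and 111 over settings and 84 (without GB control replicate 3), 9 and 8 with a library left out.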
